A study of Homo sapiens with 4 samples.

Results

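Receptor tyrosine kinases are the cell surface proteins through which growth factors, ephrins, collagens and other ligands act, and 53 of their genes were followed here among the 28058 genes of a count table. The genes were taken by name from a fixed list that covers 19 families, from the ERBB receptors to ALK, and all 53 were found in the table. Poly(A) RNA had been sequenced from cells labelled as the human neuroblastoma line SH-SY5Y, which is 1 line, grown in DMEM with fetal calf serum. There were 2 untreated control libraries and 2 libraries from cells given shock wave treatment (SWT), in which pressure pulses reach flasks through a water bath at 37 °C. The labels' protocol gives 300 impulses of 0.08 mJ/mm2 at 3 Hz and a distance of 7 cm from the applicator, with RNA taken 6 h after treatment. The design text of the series names exosomes instead, and the conflict is not settled by the labels. Separate cultures are not stated for the 2 libraries of a group either. A p-value here therefore reflects sample-to-sample spread alone, which may be technical.

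A receptor tyrosine kinase crosses the membrane once. Ligand binding brings receptors together, they phosphorylate each other on tyrosines, and adaptors such as GRB2 and SHC1 dock there and pass the signal on to the RAS-ERK and PI3K-AKT cascades. In cells of the neural crest line, ALK, RET and the neurotrophin receptors are known for roles in sympathetic neurons and in neuroblastoma, while PDGFRB, DDR2 and AXL are known from mesenchymal cells.

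Total counts were 9888263 to 11686808 per library, and the limit for a gene without counts, set at 3 counts, was 0.257 to 0.303 CPM (counts scaled to TMM library size) in single libraries, for counting error only. The label was checked against markers. Of 15 noradrenergic neuroblastoma markers, 3 reached 10 CPM in every library, HAND2 (52.0 ± 2.24 CPM, SD, n = 4), SCG2 (43.6 ± 4.71) and GATA2 (15.9 ± 2.42), and 7 had no count in any library, among them TH and DBH, enzymes of noradrenaline synthesis, and the list summed to 121 to 125 CPM untreated and 122 to 124 CPM after SWT. Of 15 mesenchymal markers, 10 reached 10 CPM in every library, and that list summed to 13403 to 14579 CPM in controls and 12900 to 13830 CPM after SWT. The noradrenergic list was thus present in part, without its enzymes of noradrenaline synthesis, which goes against the label in that respect. Heart muscle markers summed to 350.4 CPM in control replicate 2 and 37.0 CPM in SWT replicate 1, against at most 10.8 CPM in the other two. Epithelial markers (2 of 10 at 10 CPM) summed to 877 to 911 CPM over the 4 libraries. Nearly all of this was KRT18 (565 CPM) and KRT8 (315 CPM, means of 4 libraries), while CDH1 and GRHL2 had no counts. Leukocyte markers (1 of 10, CD68 at a mean of 46.1 CPM, with CD3E at 0) summed to 44.3 to 49.5 CPM. Glial markers (0 of 10, SOX10 at 0 counts in 3 libraries) summed to 7.54 to 10.9 CPM.

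Of the 53 genes, 17 stood at 10 CPM or more in every library, 10 at 1 CPM or more in every library but under 10 CPM in at least 1, 20 under 1 CPM in at least 1 library, and 6 had no count in any library. Among all 28058 genes the corresponding numbers were 9075, 2778, 5884 and 10321. The share at 10 CPM or more was thus 32.1% of the receptor genes and 32.3% of all genes, and the share without counts 11.3% and 36.8%. Together the 53 genes summed to 2539 ± 67.5 CPM (SD, n = 4), or 0.254% of a library. In bulk RNA, fewer cells of a type and less RNA per cell cannot be told apart.

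**Figure D1:**
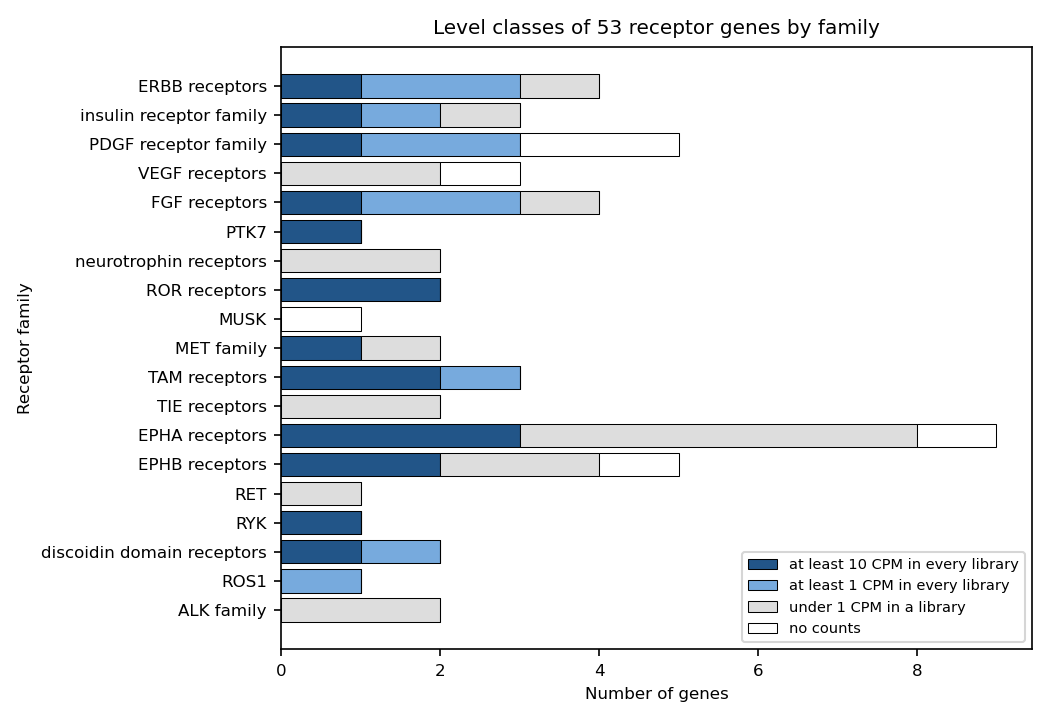
Number of receptor genes (x axis) of each family (y axis) in 4 level classes, for all 53 genes: at least 10 CPM in every library, at least 1 CPM in every library, under 1 CPM in a library, and no counts. Both ROR receptors reach the highest class, while no VEGF, neurotrophin or TIE receptor does.

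Promoter letters were set beside this split into present and absent receptors. The 250 bases before the RefSeq start (GRCh38.p14) nearest to the annotated 5' end, at most 2000 bases away, were found for 45 of the 53 genes, and CG dinucleotides were counted in them. CG reads the same on both strands, and all its occurrences were counted. Examples with many and with few CG are shown from genes with abundant transcripts, MET and DDR2, and from genes without a count, KIT and MUSK. These were chosen after the values were seen. They lie at chr7:116671946-116672195 (plus strand), chr1:162630613-162630862 (plus strand), chr4:54657707-54657956 (plus strand) and chr9:110668541-110668790 (plus strand), with each CG in capitals and all written 5′ to 3′.
MET: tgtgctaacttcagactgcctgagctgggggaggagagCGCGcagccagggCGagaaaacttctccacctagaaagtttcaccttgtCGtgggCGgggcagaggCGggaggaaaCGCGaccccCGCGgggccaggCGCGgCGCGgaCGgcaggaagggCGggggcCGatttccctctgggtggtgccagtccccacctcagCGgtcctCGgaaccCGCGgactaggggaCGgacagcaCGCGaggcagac
DDR2: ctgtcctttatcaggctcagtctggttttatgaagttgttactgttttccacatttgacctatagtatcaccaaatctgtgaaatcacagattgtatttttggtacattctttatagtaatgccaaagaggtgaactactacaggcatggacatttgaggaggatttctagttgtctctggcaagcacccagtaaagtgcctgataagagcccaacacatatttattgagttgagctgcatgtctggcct
KIT: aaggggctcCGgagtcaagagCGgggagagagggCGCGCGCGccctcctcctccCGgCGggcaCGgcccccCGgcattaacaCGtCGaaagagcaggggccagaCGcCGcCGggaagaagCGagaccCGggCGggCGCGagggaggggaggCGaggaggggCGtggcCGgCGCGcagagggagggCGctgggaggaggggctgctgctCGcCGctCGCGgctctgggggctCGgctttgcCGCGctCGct
MUSK: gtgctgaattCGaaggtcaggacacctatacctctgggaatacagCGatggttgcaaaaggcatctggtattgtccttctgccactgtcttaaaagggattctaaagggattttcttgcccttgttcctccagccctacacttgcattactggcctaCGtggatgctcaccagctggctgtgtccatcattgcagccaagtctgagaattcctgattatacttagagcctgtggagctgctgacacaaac
The windows hold 24 CG for MET, 0 for DDR2, 34 for KIT and 3 for MUSK. Of all 35116 RefSeq windows, 23.7% hold at least 24 CG, 6.84% at least 34 and 77.1% at least 3. The median was 24 CG over the 16 matched genes at 10 CPM or more and 20 over the 21 matched genes under 1 CPM or without counts, with ranges of 0 to 48 and 1 to 42, against 11 over all windows. The ranges of present and absent receptors overlapped nearly in full, so this count does not tell them apart. DDR2 and PTK7 are among the genes with other RefSeq starts, which were not used here.

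Transcript levels of 4 receptors stood far above the rest. Compared per kilobase of the longest GENCODE transcript, so that genes of different length can be ranked, EPHA2 stood at 98.8 ± 4.35, MET at 92.2 ± 4.39, AXL at 87.1 ± 4.83 and DDR2 at 38.6 ± 1.47 CPM per kb (SD, n = 4). These 4 genes made up 73.7% ± 1.21 of the summed CPM per kb of all 53 genes (SD, n = 4). By family, ephrin-A receptors held 24.3%, the TAM family 22.2%, the MET family 21.5% and the discoidin domain receptors 9.18% of that sum. The ranges of EPHA2 and MET over the 4 libraries overlapped, and so did those of MET and AXL. AXL lay 2.26-fold above DDR2 and DDR2 2.25-fold above the fifth gene, PTK7, with no overlap of ranges at either step.

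MET, the receptor of hepatocyte growth factor (chromosome 7, 116672390 to 116798386, GRCh38), had 597 and 577 CPM untreated (replicates 1 and 2, in this order throughout) and 637 and 634 CPM after SWT. Both SWT libraries lay above both controls. AXL, which binds GAS6 and is a member of the TAM family (chromosome 19, 41219203 to 41261766), had 379 and 418 CPM untreated and 429.5 and 424 CPM after SWT. Here too the groups did not overlap, but the controls were farther apart from each other than control replicate 2 was from the SWT libraries. EPHA2, an ephrin-A receptor (chromosome 1, 16124337 to 16156087), had 382 and 379 CPM untreated and 387 and 417 CPM after SWT. SWT replicate 2 stood apart from the other libraries, which lay within a few CPM of each other. DDR2, a receptor for fibrillar collagen (chromosome 1, 162631373 to 162787400), had 409 and 374 CPM untreated and 396 and 389 CPM after SWT, with both SWT values between the controls.

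**Figure D2:**
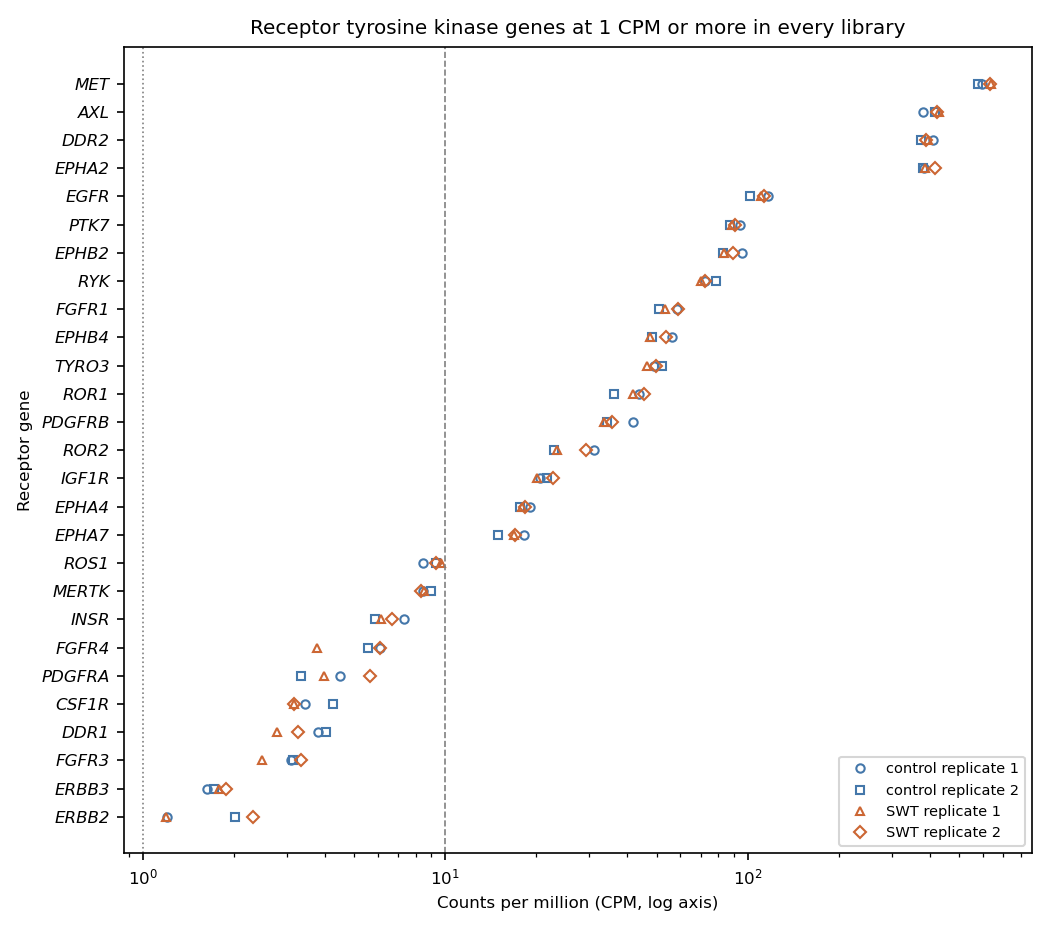
CPM on a log axis (x axis) for the 27 receptor genes at 1 CPM or more in every library (y axis), with 1 symbol for each of the 2 control and 2 SWT libraries. The dashed line marks 10 CPM and the dotted line 1 CPM. MET, AXL, DDR2 and EPHA2 lie between 374 and 637 CPM, above EGFR at 102 to 117 CPM.

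A middle tier held 10 receptors between 17.1 and 6.01 CPM per kb. It began with PTK7, a receptor of Wnt signalling without kinase activity, at 94.5 and 87.7 CPM untreated and 89.2 and 90.6 CPM after SWT. RYK, also a Wnt receptor without kinase activity, had 72.5 and 78.4 CPM untreated and 70.1 and 72.4 CPM after SWT, and both SWT values lay just under both controls. EGFR, the receptor of epidermal growth factor (chromosome 7, 55019021 to 55211628), had 117 and 102 CPM untreated and 110.5 and 113 CPM after SWT, between the controls. EPHB4, the receptor of ephrin-B2, had 56.5 and 48.4 CPM untreated and 47.7 and 53.9 CPM after SWT. In order per kb the tier continued with FGFR1 (8.92), EPHB2 (8.14), ROR1 (7.17), PDGFRB (6.35), ROR2 (6.12) and TYRO3 (6.01 CPM per kb). From EGFR down to TYRO3, the ranges of every pair of neighbours overlapped, so that the order within such a pair was not resolved. Genes farther apart could be separate, as EGFR (10.4 to 11.9 CPM per kb) lay wholly above FGFR1 (8.19 to 9.49). Among the 17 genes TYRO3 lay 2.09-fold above the next, EPHA4, with no overlap. With the union of annotated exons as the length, the first 5 genes were the same 5, while FGFR1 moved from position 9 to 14.

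The rest of this tier showed 1 control library at an extreme for several genes. FGFR1, a receptor of fibroblast growth factors, had 58.4 and 50.9 CPM untreated and 53.5 and 59.0 CPM after SWT. EPHB2, an ephrin-B receptor, had 95.7 and 83.1 CPM untreated and 83.7 and 89.6 CPM after SWT. ROR1 and ROR2 are receptors of WNT5A. ROR1 had 43.8 and 36.3 CPM untreated and 41.9 and 45.4 CPM after SWT. ROR2 had 31.0 and 22.9 CPM untreated and 23.5 and 29.3 CPM after SWT, the widest relative spread of the 17 genes (SD over 4 libraries 15.2% of the mean). PDGFRB, the receptor of PDGF-B and PDGF-D, had 41.8 and 34.3 CPM untreated and 33.6 and 35.6 CPM after SWT. Control replicate 1 alone stood high for PDGFRB. TYRO3, another TAM receptor, had 49.0 and 51.9 CPM untreated and 46.6 and 49.8 CPM after SWT.

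The lowest 3 of the 17 genes were EPHA4, EPHA7 and IGF1R, at 2.88, 2.55 and 1.74 CPM per kb, with no overlap of ranges between neighbours. EPHA4, which binds both classes of ephrin, had 19.1 and 17.7 CPM untreated and 17.95 and 18.4 CPM after SWT. EPHA7, known from axon guidance, had 18.2 and 15.0 CPM untreated and 16.9 and 17.1 CPM after SWT. IGF1R, the receptor of insulin-like growth factors, had 20.7 and 21.7 CPM untreated and 20.1 and 22.8 CPM after SWT. For each of the 3 genes the groups overlapped. Over the 17 genes the SD across 4 libraries ran from 3.23% of the mean (PTK7) to 15.2% (ROR2), with a median of 5.57%.

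Another 10 receptors lay lower. They were ROS1 (9.20 ± 0.543 CPM, SD, n = 4), a receptor kinase best known from fusions in cancer, MERTK (8.57 ± 0.296), INSR (6.504 ± 0.641), FGFR4 (5.38 ± 1.11), PDGFRA (4.36 ± 0.985), CSF1R (3.51 ± 0.507), DDR1 (3.47 ± 0.564), FGFR3 (3.01 ± 0.373), ERBB3 (1.76 ± 0.106) and ERBB2 (1.68 ± 0.573). Within the PDGF receptors the cells carried mainly PDGFRB, and within the discoidin domain receptors mainly DDR2. Per kb, PDGFRB stood at 6.35 ± 0.658 and PDGFRA at 0.663 ± 0.150, and DDR2 at 38.6 ± 1.47 and DDR1 at 0.836 ± 0.136 CPM per kb. EGFR stood at 11.3 ± 0.653 CPM per kb, while ERBB2, its usual partner in dimers, stood at 0.341 ± 0.116 (SD, n = 4). ERBB2 differed between replicates more than between groups, with 1.21 and 2.02 CPM untreated and 1.19 and 2.32 CPM after SWT. Some exons are shared with neighbours. Of the 28 tested genes, 7 overlap exons of a gene on the other strand (AXL, EGFR, EPHA4, EPHB2, EPHB4, ERBB2 and FGFR1), and PDGFRA, ROS1, ERBB3 and DDR1 overlap annotated genes on their own strand, PDGFRA over 1533 bases. The strand setting of the counting was not given in the sources used here, and whether reads were lost or gained there was not tested.

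ALK, RET and the neurotrophin receptors among the 53 genes were at or near 0. ALK (chromosome 2, 29192774 to 29921566), the driver kinase that SH-SY5Y is known to carry in an activated form, had 2 and 0 counts in control and 1 and 0 counts in SWT. Over all libraries this is 0.0694 CPM, with an exact Poisson 95% interval of 0.0143 to 0.203 CPM that covers counting error only. RET, the signalling receptor for GDNF family ligands (chromosome 10, 43077027 to 43130351), had 0 and 1 counts in control and 2 and 2 in SWT, or 0.116 CPM (0.0375 to 0.270). NTRK2, the receptor of BDNF, had 1 count and NTRK3, the receptor of neurotrophin-3, had 2 counts over all libraries. LTK, a relative of ALK, had 1 count. None of these genes came near 1 CPM in a library.

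KIT, FLT3, FLT4, MUSK, EPHA8 and EPHB6 had no count in any library, with a limit of 0.0694 CPM for the 4 libraries together (3 counts). KDR, the main VEGF receptor of endothelium, had 3 counts over all libraries. Of the 20 genes with counts that stood under 1 CPM in at least 1 library, 12 had 5 counts or fewer over all libraries, and the other 8 were EPHA3, TIE1, MST1R, FLT1, EPHA6, EPHB3, ERBB4 and TEK. FLT1, another VEGF receptor, had 1 and 7 counts in control and 1 and 3 in SWT. TEK, the angiopoietin receptor of endothelium, had 11 and 18 counts in control and 10 and 8 in SWT. Both were highest in control replicate 2, the library with 350.4 CPM of heart muscle markers. In that library the endothelial gene VWF stood at 1.72 CPM and PECAM1 at 2.32 CPM, against at most 0.298 and 1.37 CPM in the others, while the 10 endothelial markers summed to 33.6 CPM in it and to 28.9 to 32.2 CPM in the others. CDH5 and PLVAP, defining endothelial genes, were at 0 in the other 3 libraries. The part of these values in the FLT1 and TEK counts was not tested.

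The comparison of SWT with control asks whether receptor transcripts differ 6 h after treatment. No receptor gene passed the test. With edgeR's quasi-likelihood test adjusted over 12399 genes, 0 of the 28 receptor genes kept by the filter on low counts were higher (0% of all genes tested) and 0 were lower (0%). At an unadjusted p under 0.05 there was 1 receptor gene, MET, or 3.57% of the 28, against 5.77% of all genes tested in either direction and 2.81% of all genes tested in the direction of MET. DESeq2 gave 0 calls with 1 of 47 receptor genes at an unadjusted p under 0.05 (2.13%, against 0.654% of all genes). For limma-voom it was 0 with 1 of 28 (3.57%, against 5.81%). For limma on the deposited log2 values it was 0 with 3 of 47 (6.38%, against 4.94%). MET was among them in each of these fits. The others in the last fit were EPHA1 and TIE1, with 2 and 6 counts over all libraries. The edgeR fit with replicate number as a block had 0 of 28 at that p (against 4.23% of all genes), so MET was not among them there. A block crossed between the replicate numbers had 2 of 28 (7.14%, against 10.3%). The log2 difference was above 0 for 13 of the 28 and below for 15 (median -0.021), against 49.7% above 0 and a median of -0.00077 over all genes tested.

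MET had a mean of 587 ± 14.0 CPM untreated and 636 ± 2.003 CPM after SWT (SD, n = 2 per group). Its log2 difference (log2 fold change, SWT minus control) was 0.11 (edgeR adjusted p = 0.843, unadjusted p = 0.0346, SE 0.050). With each library left out it ran from 0.091 without control replicate 2 to 0.14 without control replicate 1. Its sign had to hold there, as both SWT libraries lay above both controls. ROR1 had 40.0 ± 5.33 CPM untreated and 43.6 ± 2.48 CPM after SWT, a log2 difference of 0.12 (edgeR adjusted p = 0.910, SE 0.092), which fell to -0.0025 without control replicate 2 and stood at 0.27 without control replicate 1. AXL had 398 ± 27.1 and 427 ± 3.55 CPM, a log2 difference of 0.10 (edgeR adjusted p = 0.868, SE 0.057), with 0.033 without control replicate 1 and 0.17 without control replicate 2. PDGFRB had 38.0 ± 5.36 and 34.6 ± 1.39 CPM, a log2 difference of -0.14 (edgeR adjusted p = 0.900, SE 0.098), and stood at 0.018 without control replicate 1. RYK had 75.4 ± 4.20 and 71.2 ± 1.60 CPM, a log2 difference of -0.080 (edgeR adjusted p = 0.916, SE 0.069). These are the 5 genes with the widest differences among the 17, and none passed the test adjusted over all genes. For MET the group difference was larger than the difference within either group.

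**Figure D3:**
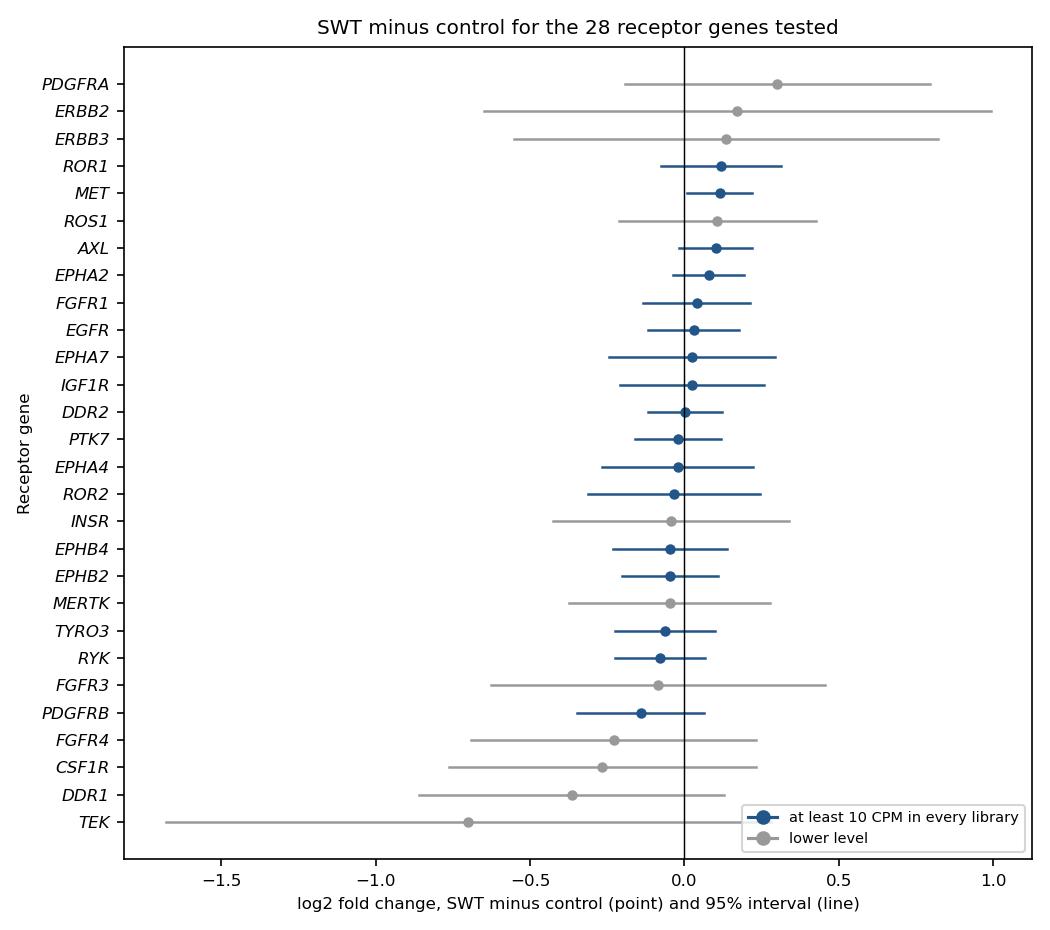
Log2 fold change of SWT minus control (x axis, points) with its 95% interval (lines) from the edgeR fit, for the 28 receptor genes tested (y axis). Dark points are the 17 genes at 10 CPM or more in every library. The interval lies above 0 for MET alone (0.0093 to 0.22), without adjustment, and is widest for TEK (-1.68 to 0.28).

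The intervals describe the spread between these libraries, gene by gene and without adjustment. As separate cultures are not stated, they do not bound a difference that other cultures could show. For all 17 abundant receptors the 95% interval of the log2 fold change lay within 0.5 of 0, and for 11 of them within 0.25. It was -0.12 to 0.12 for DDR2, -0.037 to 0.19 for EPHA2, -0.16 to 0.12 for PTK7 and -0.12 to 0.18 for EGFR. Of the 11 lower genes tested, 10 had an interval within 1 of 0 and 3 within 0.5. The exception was TEK, at -0.70 (-1.68 to 0.28), which stood at -0.19 without control replicate 2. DDR1 had 3.79 and 4.04 CPM untreated and 2.78 and 3.26 CPM after SWT, a log2 difference of -0.36 (-0.86 to 0.13). PDGFRA had 4.48 and 3.33 CPM untreated and 3.97 and 5.66 CPM after SWT, at 0.30 (-0.19 to 0.80). CSF1R, the receptor of macrophages for CSF1, had 3.44 and 4.24 CPM untreated and 3.17 CPM in both SWT libraries, at -0.27 (-0.76 to 0.23). FGFR4 stood at -0.23 (-0.69 to 0.23), with 3.77 CPM in SWT replicate 1 against 5.56 to 6.11 CPM in the others. These low genes were named after their values were seen.

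Both SWT libraries lay above both controls for 5 of the 28 genes (ERBB3, MET, AXL, EPHA2 and ROS1), or 17.9%, against 17.3% of all genes tested. They lay below both controls for 3 (CSF1R, RYK and DDR1), or 10.7%, against 18% of all genes tested. The first share is near the background. Differences inside a group were often the wider ones. Among the 17 abundant receptors, the absolute log2 difference between the controls was larger than that between the groups for 15, and that between the SWT libraries for 11. A difference of 2 single libraries varies more than one of 2 group means, so these counts cannot tell whether SWT had an effect. They were not made over all genes. Median absolute log2 differences were 0.139 between controls and 0.0821 between SWT libraries for the 17, against 0.0902 and 0.0670 over all 9075 genes at 10 CPM or more. Control replicate 2 lay below control replicate 1 for 13 of the 17 (median log2 difference -0.13), and SWT replicate 2 above SWT replicate 1 for 14 (median 0.082). Over all 9075 genes at 10 CPM or more these medians were 0.00082 and 0.0023. Across genes, both of these differences followed GC content in the whole table (Spearman rho of 0.484 for control replicate 1 minus 2 and 0.382 for SWT replicate 2 minus 1, over 6286 genes, which are not independent replicates). Over the 17 receptors, whose median GC content was 51.7% against 47.6% for genes tested, rho was 0.130 and 0.449. The part of GC content in the receptor differences was not tested gene by gene. With each library's trend along transcript length and GC content removed, EGFR, IGF1R, PTK7, EPHA7 and DDR2 changed sign, at -0.012, -0.013, 0.011, -0.025 and -0.061.

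**Figure D4:**
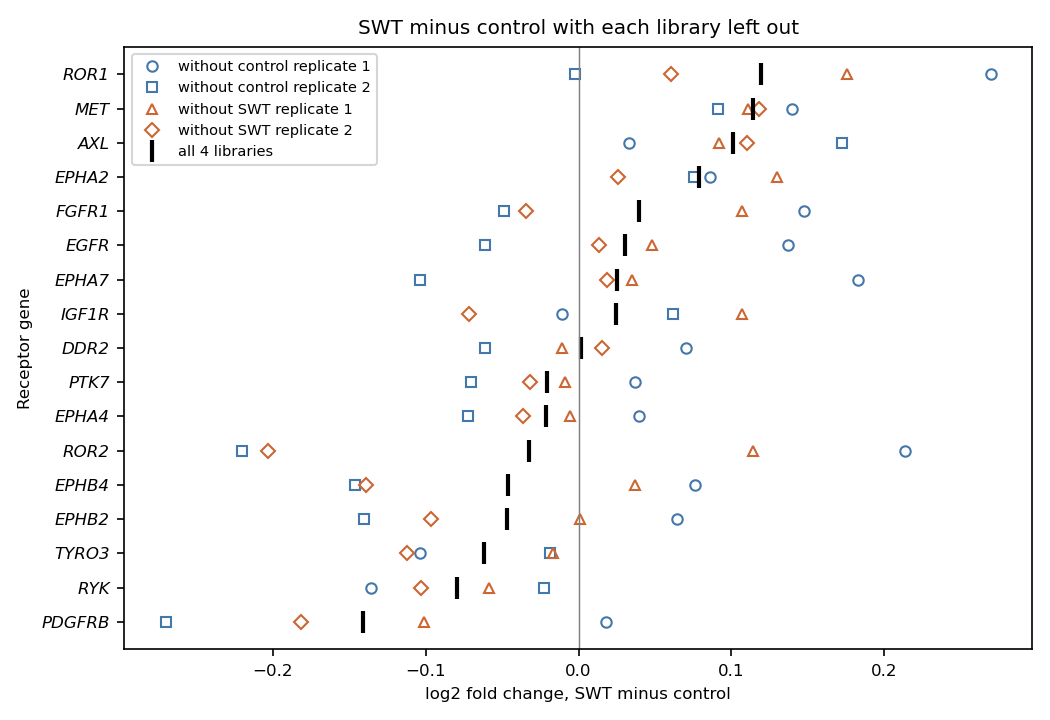
Log2 fold change of SWT minus control (x axis) for the 17 receptor genes at 10 CPM or more (y axis), with all 4 libraries (black bars) and with each library left out (symbols). MET, AXL, EPHA2, TYRO3 and RYK keep their sign in all 4 leave-outs, while ROR2 runs from -0.22 to 0.21.

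Of the 17 genes, 5 kept their sign with each library left out, MET, AXL and EPHA2 above 0 and TYRO3 and RYK below. For MET, AXL, EPHA2 and RYK the groups did not overlap, so the sign had to hold and adds nothing to that. The share over all genes tested was not counted. The call did not depend on 1 library. With each library left out edgeR called 0 receptor genes, where its calls over all genes came to 0.978% and 1.6% when control replicates 1 and 2 were left out, and to 0.346% and 0.135% when SWT replicates 1 and 2 were. These fits take a single remaining library to vary as the other pair does. Without the filter on low counts, 47 receptor genes were tested and 0 called, against 0.355% of all genes.

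Ligands were present for several of the abundant receptors. GAS6, the ligand of AXL and TYRO3, stood at 71.6 ± 2.26 CPM (SD, n = 4) and PROS1 at 35.6 CPM. EFNB2, the ligand of EPHB4, stood at 70.4 CPM, EFNA1, a ligand of EPHA2, at 15.3 CPM, and WNT5A at 33.5 CPM (means of 4 libraries). TGFA, a ligand of EGFR, stood at 75.0 CPM. HGF, the ligand of MET, had only 4 and 5 counts in control and 4 and 6 in SWT. For some other ligands the receptor had no or few counts. KITLG stood at 60.5 CPM with KIT at 0, VEGFC at 80.6 CPM with FLT4 at 0, and BDNF at 41.0 CPM with NTRK2 at 1 count over all libraries. CSF1 stood at 162 CPM and its receptor gene CSF1R at 3.51 CPM. ALKAL1 and ALKAL2, ligands of ALK, had no counts. Of the GDNF family ligands of RET, GDNF had no counts, while ARTN had a mean of 0.704, NRTN of 0.186 and PSPN of 0.0893 CPM. These ligands were picked by receptor and not for a change.

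Around the receptors, 5 lists were described in the same fit, and no member of any passed in edgeR. Of 70 ligand genes 37 were tested, of which 26 lay above 0, with a median log2 fold change of 0.078. Without control replicate 1 the median was 0.041, with 20 of 37 above 0. It ran from 0.060 to 0.076 with another library left out. Per kb the highest were MDK (62.4), AGRN (59.4) and PDGFC (45.7 CPM per kb). MDK, AGRN and PDGFC had log2 fold changes of -0.035, 0.013 and 0.013. At an unadjusted p under 0.05 there were 5 ligand genes, all above 0, or 13.5% of the 37 against 5.77% of all genes tested in either direction and 2.81% higher. DESeq2, without the filter on low counts, had 1 of 57 ligands at that p (1.75%, against 0.654% of all genes). For limma-voom it was 6 of 37 (16.2%, against 5.81%), and for limma on the deposited log2 values 4 of 57 (7.02%, against 4.94%). FGF1, a ligand of all FGF receptors, had 5.59 and 8.89 CPM untreated and 10.6 and 11.1 CPM after SWT, a log2 difference of 0.60 (edgeR adjusted p = 0.838, SE 0.19). PDGFD, a ligand of PDGFRB, had 7.49 and 6.77 CPM untreated and 10.3 and 9.00 CPM after SWT, at 0.43 (edgeR adjusted p = 0.838, SE 0.16). FGF2 had 249 and 261 CPM untreated and 298 and 269 CPM after SWT, at 0.15 (edgeR adjusted p = 0.838, SE 0.061). The other 2, HBEGF at 0.37 and NRG4 at 1.02, were named for that p. In all 5 both SWT libraries lay above both controls, as for 11 of the 37 ligands (29.7%) and 17.3% of all genes tested. They lay below both controls for 5 ligands (13.5%), against 18% of all genes tested. Without control replicate 2, FGF1 stood at 0.96, HBEGF at 0.64 and VEGFC at 0.26 (0.16 with all libraries). With another library left out, HBEGF fell to 0.12 and VEGFC to 0.062 at the lowest. Without control replicate 1, AGRN stood at 0.20 and FGF1 at 0.29.

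**Figure D5:**
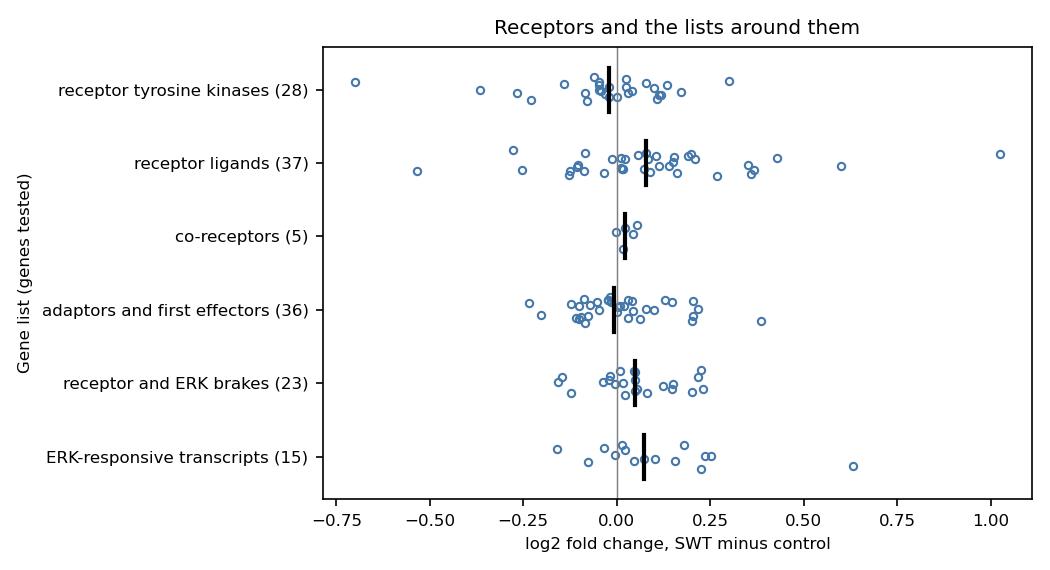
Log2 fold change of SWT minus control (x axis) of each tested gene (circles, spread vertically at random) and the median (bar), for the receptors and the 5 lists around them (y axis). Medians run from -0.021 for the 28 receptors to 0.078 for the 37 ligands.

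Co-receptors stayed close to 0 by value. Of 11 genes 5 were tested, 4 of them above 0, with a median of 0.022 and 0 at an unadjusted p under 0.05. NRP1, IGF2R and NRP2 were the highest, at 82.7, 49.2 and 34.0 CPM per kb, with log2 fold changes of 0.018, 0.022 and -0.0030. IGF2R was kept in this list although it binds IGF2 by itself and is not a co-receptor in the strict sense. Its value is the median of the list. GFRA1, which presents GDNF to RET, stood at 23.5 ± 0.821 CPM (SD, n = 4) and a log2 difference of 0.044, although RET was nearly absent. LRP4, the agrin receptor that works with MUSK, stood at 0.054.

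Adaptors and first effectors were split evenly, with 18 of 36 tested genes above 0 and a median of -0.0072. SHC1 led at 307 CPM per kb, before GRB2 at 62.0 and PTPN11 at 44.8 CPM per kb. SHC1 had 1145 and 1065 CPM untreated and 1013 and 1048 CPM after SWT, a log2 difference of -0.10 (edgeR adjusted p = 0.843, SE 0.049). Without control replicate 2 it was called, at -0.15 (edgeR adjusted p = 0.0465). The phosphatase gene PTPN11 had 260.2 and 258 CPM untreated and 289 and 286 CPM after SWT, at 0.15 (edgeR adjusted p = 0.838, SE 0.054). The kinase gene ARAF had 57.8 and 60.3 CPM untreated and 52.6 and 50.0 CPM after SWT, at -0.20 (edgeR adjusted p = 0.838, SE 0.073). SOS2, an exchange factor for RAS, stood at 0.21, GRB2 at 0.044 and NCK2, at 0.20. With PTPN11, ARAF and SOS2, NCK2 made up the 4 genes at an unadjusted p under 0.05, or 11.1% of the 36 against 5.77% of all genes tested. DESeq2, without the filter on low counts, had 1 of 41 at that p (2.44%, against 0.654% of all genes), and limma-voom 4 of 36 (5.81% of all genes). Groups of PTPN11 and ARAF were apart by more than their replicates, and neither passed over all genes.

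Genes that hold the receptors or ERK back numbered 23 tested, 16 of them above 0, with a median of 0.049. The median was 0.022 without control replicate 1, with 15 of the 23 above 0. It ran from 0.051 to 0.061 with another library left out. The highest per kb were ERRFI1, an inhibitor of EGFR (50.5), PTPN1 (31.0) and SH3KBP1 (25.9 CPM per kb), with log2 fold changes of 0.12, 0.017 and -0.018. SPRED2, an inhibitor of the RAS-ERK cascade, had 54.7 and 57.3 CPM untreated and 66.8 and 63.4 CPM after SWT, at 0.22 (edgeR adjusted p = 0.838, SE 0.072). SPRY4, of the same kind, had 31.6 and 34.8 CPM untreated and 36.0 and 41.2 CPM after SWT, at 0.23 (edgeR adjusted p = 0.838, SE 0.093). CBL, which marks receptors for degradation, stood at 0.15. With SOCS3 at -0.16 these were the 4 genes at an unadjusted p under 0.05, or 17.4% of the 23 against 5.77% of all genes tested. DESeq2, without the filter on low counts, had 0 of 24 at that p (0.654% of all genes), and limma-voom 4 of 23 (5.81%). For limma on the deposited log2 values it was 3 of 24 (12.5%, against 4.94% of all genes). Both SWT libraries lay above both controls for 9 of the 23 (39.1%, against 17.3% of all genes tested) and below both for 3 (13.0%, against 18%).

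Transcripts known to respond to ERK numbered 15 tested, 11 of them above 0, with a median of 0.074 and 4 at an unadjusted p under 0.05, KLF2, FOSL1, IER2 and SPRY4, the last also counted among the brakes. They were 26.7% of the 15, against 5.77% of all genes tested in either direction and 2.81% higher. The share depended on the method. DESeq2, without the filter on low counts, had 0 of 19 at that p (0.654% of all genes), and limma-voom 5 of 15 (5.81%). The edgeR median was 0.0099 without control replicate 1, with 9 of the 15 above 0, and 0.11 without control replicate 2, with 13 above 0. KLF2 had 33.7 and 34.3 CPM untreated and 40.6 and 40.4 CPM after SWT, a log2 difference of 0.25 (edgeR adjusted p = 0.838, SE 0.082). IER2 had 67.1 and 64.5 CPM untreated and 71.8 and 77.3 CPM after SWT, at 0.18 (edgeR adjusted p = 0.838, SE 0.070). FOSL1, the highest of the list per kb (78.5), had 104 CPM in control replicate 1 and 137, 140.4 and 142 CPM in the other libraries, at 0.24 (edgeR adjusted p = 0.838, SE 0.090). Its difference rested on control replicate 1, as it stood at 0.042 without that library and was called at 0.45 without control replicate 2. EGR1 stood at 1.502 without control replicate 2, against 0.63 with all libraries and 0.029 at the lowest with another library left out. JUNB, also among the highest 3 per kb, stood at 0.014.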

How the data were processed

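Poly(A) RNA libraries of 2 control and 2 SWT samples were grouped, and replicates numbered, by the sample titles. Raw read counts for 28058 gene symbols were deposited by the authors, beside log2 values for 17151 of unknown transform. The submitters' processing notes list HTSeq, STAR 2.5.3a, Trimmomatic 0.36, DESeq2 and FastQC 0.11.5 and the build hg38, with no roles. They do not state the annotation or the strand setting.

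The main test was edgeR 4.0.16 under R 4.3.3 (TMM factors 0.997 to 1.004, filterByExpr by group, quasi-likelihood F-test, Benjamini-Hochberg over 12399 genes, threshold 0.05, biological coefficient of variation 4.32%). Standard errors were derived from F and 95% intervals from a t quantile, so both are approximate. No replicate block was used. The correlation of same-numbered deviations from the group means was -0.283 over 6316 genes, which gave no sign of pairing by number. Being negative, it means that control replicate 1 and SWT replicate 2 tended to deviate alike, and the reason was not tested. A crossed block (control replicate 1 with SWT replicate 2, control replicate 2 with SWT replicate 1) was therefore also run, chosen after seeing the data. It put 10.3% of all genes at an unadjusted p under 0.05, against 5.77% in the main fit. Alternatives were limma 3.58.1 (voom, and on the deposited log2 values), DESeq2 1.42.0 and its size factors in edgeR, other filters on low counts (none, or a mean of 50), blocking by replicate number, removing single libraries, removing each library's length and GC trend, and dropping heart muscle markers. Coordinates, lengths and GC content come from GENCODE release 29 (GRCh38, the assembly of hg38), matched by symbol for all 53 receptors. Protein sequences were not used here, so a planned comparison of kinase motifs was not made. Plots used matplotlib 3.10.9 under Python 3.11.15.

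The receptors and all lists were chosen with earlier results of these data known. Named genes follow a rule: all receptors by level, SWT minus control for receptors at an unadjusted p under 0.05 and the 5 widest at 10 CPM or more, and per list the 3 highest per kb and the 3 smallest p.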

Additional observations from a re-analysis of the deposited data

How the results depend on the processing

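No receptor gene was called under any of the alternatives run. Over all genes, edgeR called 20 higher and 43 lower with no filter, and 1 gene higher (ID1, chosen after its value was seen) with the length and GC trend removed. With 1 library left out it called 2 to 106 higher and 15 to 97 lower, among them 0 to 3 ligands, 0 to 1 adaptors and 0 to 2 ERK-responsive transcripts, with most calls without control replicate 2. With the replicate block 1 gene was called lower and 0 higher, and the crossed replicate block, an alternative chosen after seeing the data, called 55 higher and 42 lower, with 1 ligand and 1 ERK-responsive transcript. The block changed no call of a receptor.

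With the trend removed, log2 differences changed sign for EGFR (-0.012), IGF1R (-0.013), PTK7 (0.011), EPHA7 (-0.025), DDR2 (-0.061), MDK (0.027), PDGFC (-0.025), NRP1 (-0.012) and IGF2R (-0.035), and the cause was not tested. With each library left out in turn, the sign changed for these receptors, from lowest to highest log2 difference: EGFR -0.061 to 0.14, IGF1R -0.072 to 0.11, PDGFRB -0.27 to 0.018, FGFR1 -0.049 to 0.15, PTK7 -0.071 to 0.037, ROR1 -0.0025 to 0.27, ROR2 -0.22 to 0.21 and EPHA4 -0.072 to 0.040. It also did for EPHA7 -0.10 to 0.18, EPHB2 -0.14 to 0.064, EPHB4 -0.15 to 0.076, DDR2 -0.061 to 0.071, INSR -0.18 to 0.14, FGFR4 -0.63 to 0.058, ERBB2 -0.42 to 0.57 and FGFR3 -0.33 to 0.10. Among the other genes it did for MDK -0.10 to 0.030, AGRN -0.15 to 0.20, PDGFC -0.060 to 0.094, NRP1 -0.044 to 0.085, IGF2R -0.10 to 0.16, NRP2 -0.021 to 0.018, LRP4 -0.040 to 0.17, SH3KBP1 -0.056 to 0.022 and JUNB -0.11 to 0.17. The limit is the design: 2 libraries per group, not stated to be separate cultures, which allow no outlier test. Receptors under 1 CPM rest on few counts, and apart from TEK the filter kept them out of the main test. The planned comparison of protein motifs was not run.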
